A study of Mus musculus with 72 samples.

Results

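Transcript levels in the liver were set against those in the kidney of the same 5 sham-operated mice, numbered 21, 22, 76, 77 and 78. The 10 arrays, 5 livers and 5 kidneys, were chosen by their labels from 72 arrays of the study, and no measured value entered the choice. All mice were female C57Bl/6J. The sham mice had surgery without injury to the gut and were given saline 6 hours later, and organs were taken 28 hours after surgery. Where the text turns to septic animals, the CLP mice had their cecum ligated and punctured and were then given saline, and the MSC mice were injured in the same way and received mesenchymal stem cells from male mice of the strain. Each of these arms also had 5 livers and 5 kidneys. The labels number 5 animals in each arm, with both organs from each, where the series' design text speaks of 4. No age is stated for the mice. One label field names a tissue other than the organ for these arrays, and the organ was taken from the title, source name and description, which match each other.

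The liver makes most proteins of the blood plasma, turns ammonia into urea, makes bile acids from cholesterol and chemically alters drugs and hormones for excretion. Most of this is the work of hepatocytes. The kidney filters blood in its glomeruli, and the tubule behind each of them takes back nearly all of the salt, sugar and amino acids, segment by segment, through membrane transporters. The proximal tubule does most of this work and is rich in mitochondria. Both organs make glucose during fasting and share several transporters and enzymes.

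Values are log2 intensities, in which 1 unit is a doubling. Of 22504 probes whose row follows the header of the deposited table, 8676 exceeded 6 log2 in at least 5 of the 10 arrays and were tested, and 7491 of those tested carry 1 gene symbol in the array's annotation. Arrays of the same organ correlated at 0.965 or more, and arrays of different organs at 0.69 to 0.79 across probes. The labelled organs matched their defining markers. All 11 tested hepatocyte markers were higher in the livers. In the kidneys, 26 of 28 tested proximal tubule markers and all 6 of the loop of Henle were higher. Over all probes tested, 33.7% were higher in liver and 36.2% higher in kidney. Markers bright in 1 organ alone pass the filter through that organ and had to differ. With no filter the counts were 12 of 12, 27 of 32 and 7 of 8.

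The kidney array of mouse 78 stood apart from the other 4 kidneys, so the results on liver-high genes were also computed without this mouse. Of the 56 genes named here that were higher in liver, the fitted fold of 18 moved by over 1.5 times without it, and these are given both ways. For the others it moved by less than that, and for the 55 higher in kidney by at most 1.15 times. Its root mean square distance from the mean of the other kidneys was 0.48 log2, against 0.26 for each of the others measured in the same way. It carried hepatocyte transcripts. Over the 12 hepatocyte markers on the rows used, the mean level was 9.84 log2 in this kidney, against 5.76 to 6.71 in the other 4 kidneys and 12.21 to 12.44 in the livers, and 10 of the 12 exceeded 6 log2 in it, against 3 or 4 in the others. In 9 of the 12 it lay at least 2 log2 above the highest of the other kidneys. Of all probes tested, 79 lay that far above the other 4 kidneys in the kidney of mouse 78 and 0 did so in any other kidney. All 79 were called higher in liver in the fit without this mouse, as were 2722 of all 8676 probes tested. Probes dim in the other 4 kidneys pass the filter only where livers are bright, so for such probes this call was largely fixed by the filter. Over the 70 probes that were at least 6 log2 higher in liver in the other 4 mice, the intensity in this kidney had a median of 9.61% of that in the liver of the same mouse (quartiles 7.75% and 13.1%), while the median was 0.542% to 0.977% in the others. Kidney probes were near their usual level in it: the 45 probes at least 6 log2 higher in kidney averaged 12.68 log2, against 12.80 to 12.85 in the other 4 kidneys. None of the 10 kidneys of CLP and MSC mice carried the liver-high probes at such a level (5.87 to 6.69 log2 on average). The origin of these transcripts was not tested.

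**Figure D1:**
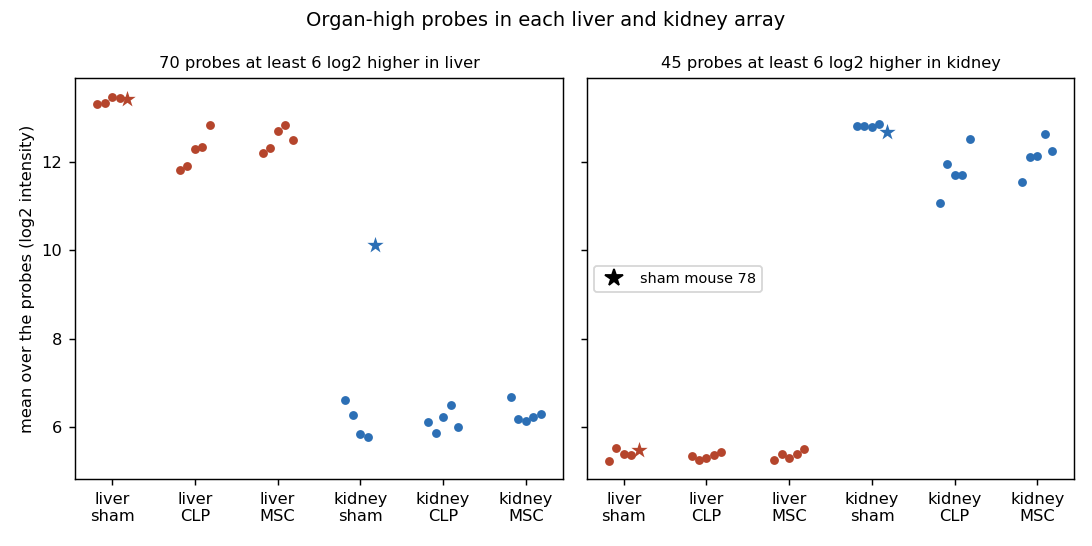
Mean log2 intensity over probes high in 1 organ, for each of the 30 liver and kidney arrays (points, 5 per group; the star is sham mouse 78). On the left, over 70 liver-high probes, the kidney of sham mouse 78 stands at 10.13 while all other kidneys lie between 5.78 and 6.69; on the right, over 45 kidney-high probes, it stands beside the other sham kidneys. The probes were picked on the other 4 sham mice, so the height of those groups is fixed by the choice.

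Liver and kidney differed at 6063 of 8676 probes tested (69.9%; limma with the mouse as a block, Benjamini-Hochberg adjusted p below 0.05, n = 5 pairs), 2925 higher in liver and 3138 higher in kidney. In whole organs, fewer cells of a type and less RNA per cell cannot be told apart. The difference reached 1 log2 at 1034 probes in favour of liver and 1378 in favour of kidney, together 27.8% of probes tested. It reached 4 log2 at 153 and 141 probes. All 5 livers lay above or below all 5 kidneys at 53.2% of probes, and 93.9% of the probes called had the same direction in all 5 mice. The most extreme differences all favoured the kidney with all mice in the fit: 12 probes were at least 8 log2 higher there and 0 in liver. Without mouse 78 the counts at 8 log2 were 15 for liver and 12 for kidney, and those at 6 log2 were 70 and 45 in place of 49 and 45. The total without this mouse was 5720 probes, 2722 higher in liver and 2998 higher in kidney.

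**Figure D2:**
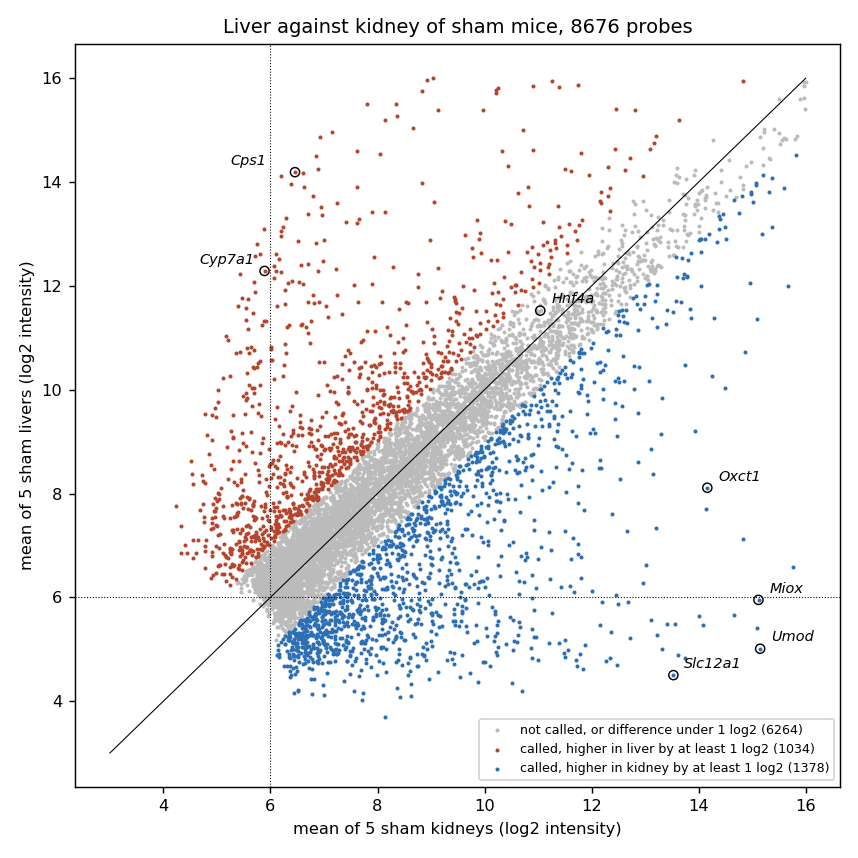
Mean log2 intensity of 8676 probes in 5 sham kidneys (horizontal) and 5 sham livers (vertical); each point is a probe, and dotted lines mark 6 log2. Umod and Miox stand at the lower right and Cps1 and Cyp7a1 at the upper left, with mouse 78 included in the kidney means; Hnf4a lies near the diagonal.

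The 8 largest differences in favour of liver belonged to secreted proteins, enzymes and a membrane channel. Plg encodes plasminogen, the precursor of the enzyme that dissolves clots. Its level in the livers of mice 21, 22, 76, 77 and 78 was 14.97, 14.92, 14.83, 14.79 and 14.79 log2, and in their kidneys 6.61, 6.27, 5.49, 5.29 and 10.99 log2. Livers and kidneys did not overlap, and the kidney of mouse 78 lay over 4 log2 above the next. Plg was 7.93 log2 higher in liver (SE 0.75, adjusted p 2.83e-05), 244-fold, and without mouse 78 at least 403-fold higher (adjusted p 1.17e-08). Such a lower bound is given wherever the mean of the dimmer organ was under 6 log2, and is counted from 6 log2. Cps1, which catalyses the first step of the urea cycle, stood at 13.62, 14.13, 14.14, 14.57 and 14.49 log2 in the livers. In the kidneys it stood at 5.69, 5.87, 5.13, 4.34 and 11.27 log2, again with mouse 78 far above the rest. It was 7.73 log2 higher in liver (SE 0.85, adjusted p 7.02e-05), and without mouse 78 at least 277-fold higher. Hamp, the gene of the iron hormone hepcidin, ranged from 13.75 to 14.41 log2 in liver and stood at 6.28, 5.84, 4.63, 4.91 and 11.38 log2 in the kidneys. Its difference was 7.56 log2 (SE 0.89, adjusted p 0.000103), and at least 270-fold without mouse 78. The other 5 of the leading 8 genes had the same form. They were Apoc4, an apolipoprotein (7.83 log2), Mat1a, which makes the methyl donor S-adenosylmethionine (7.69 log2), Ugt2b36, which attaches glucuronic acid to drugs and steroids (7.66 log2), Aqp9, a water and glycerol channel (7.60 log2), and the cytochrome P450 Cyp2c37 (7.37 log2). Without mouse 78, Mat1a was 467-fold higher in liver and the others at least 245-fold to 385-fold.

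The 8 largest differences in favour of kidney included transporters and secreted proteins of the tubule, and the kidney of mouse 78 was not set apart in most of them. Umod encodes uromodulin, a protein of normal urine, made in the thick ascending limb of the loop of Henle. It stood at 15.30, 15.25, 15.17, 15.20 and 14.83 log2 in the kidneys of mice 21, 22, 76, 77 and 78, and at 5.11, 5.02, 5.08, 4.91 and 4.93 log2 in their livers. The organs were over 9 log2 apart in every mouse, and the kidney of mouse 78 was the lowest. Umod was at least 568-fold higher in kidney (fitted difference 10.14 log2 in favour of kidney, SE 0.09, adjusted p 5.49e-10). Miox begins the breakdown of inositol in the proximal tubule. Its level was 14.94, 14.76, 15.30, 15.47 and 15.13 log2 in the kidneys and 6.33, 5.70, 6.20, 5.95 and 5.56 log2 in the livers, at least a 516-fold difference (SE 0.15 log2, adjusted p 3.13e-09). Slc12a1, the sodium, potassium and chloride cotransporter that loop diuretics block, ranged from 13.37 to 13.74 log2 in kidney and from 4.22 to 4.75 log2 in liver, at least 185-fold higher in kidney (adjusted p 9.04e-10). Napsa, an aspartic protease, was 582-fold higher in kidney (15.77 ± 0.08 against 6.59 ± 0.29 log2, mean ± SD, n = 5), and it was also high in sham lungs (13.75 log2). Cldn10, a tight junction protein, was at least 273-fold higher in kidney and likewise high in lung (12.62 log2). Klk1b5, a tissue kallikrein, was at least 408-fold higher, Dnase1, a secreted nuclease, at least 215-fold, and the cytochrome P450 Cyp2j11 at least 195-fold. Dnase1 stood at 14.57 log2 in the kidney of mouse 22 and at 13.48 to 13.60 log2 in the other 4. Klk1b5, Cyp2j11, Ugt2b36 and Cyp2c37 belong to families of near-identical genes, so their probes may also bind transcripts of relatives.

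**Figure D3:**
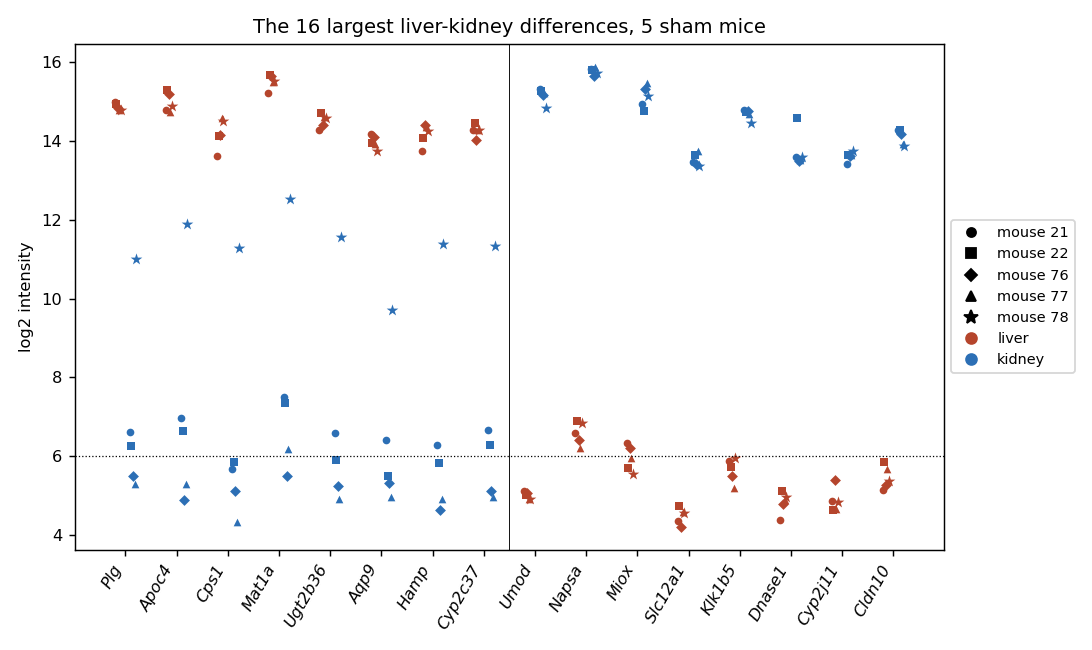
Log2 intensity of the 8 genes with the largest difference in favour of liver (left of the line) and the 8 in favour of kidney (right) in each sham mouse (red, liver; blue, kidney; symbols, mice; dotted line, 6 log2). In all 8 liver-high genes the kidney of mouse 78 (blue star) stands between 9.72 and 12.52 log2, above the other 4 kidneys, whereas for the kidney-high genes the 2 organs form compact, separate groups.

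Promoters of 4 named genes are shown because each holds a core motif of a factor that both organs use. HNF1 factors act in hepatocytes and in the tubule and bind a site that contains GTTAAT, and TATAAA is the TATA box. The sequences are from RefSeq (build GRCm38.p6) and run from 250 bases before to 50 bases after the gene's start. Capitals mark GTTAAT on either strand (ATTAAC where it lies on the other strand) and TATAAA on either strand. Umod (chr7:119479213-119479512, minus strand) holds GTTAAT 202 bases before the start. Miox (chr15:89334223-89334522, plus strand) holds it on the other strand, 142 bases before the start, and TATAAA 40 bases before the start. Cldn10 (chr14:118787621-118787920, plus strand) holds it on the other strand, 15 bases before the start. Slco1b2, a liver uptake transporter (chr6:141629268-141629567, plus strand), holds GTTAAT 66 bases before the start and TATAAA at 2 places further upstream.
Umod: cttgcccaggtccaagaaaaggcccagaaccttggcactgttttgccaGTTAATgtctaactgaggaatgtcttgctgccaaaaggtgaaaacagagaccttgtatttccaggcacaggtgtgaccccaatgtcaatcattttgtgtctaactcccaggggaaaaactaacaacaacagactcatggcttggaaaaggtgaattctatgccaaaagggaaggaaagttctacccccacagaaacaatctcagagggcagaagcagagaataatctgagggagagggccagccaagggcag
Miox: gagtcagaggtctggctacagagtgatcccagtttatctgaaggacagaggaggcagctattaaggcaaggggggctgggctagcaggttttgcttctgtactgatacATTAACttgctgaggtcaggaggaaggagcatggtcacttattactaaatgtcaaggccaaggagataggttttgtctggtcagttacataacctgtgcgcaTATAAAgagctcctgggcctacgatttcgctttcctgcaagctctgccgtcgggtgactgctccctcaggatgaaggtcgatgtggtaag
Cldn10: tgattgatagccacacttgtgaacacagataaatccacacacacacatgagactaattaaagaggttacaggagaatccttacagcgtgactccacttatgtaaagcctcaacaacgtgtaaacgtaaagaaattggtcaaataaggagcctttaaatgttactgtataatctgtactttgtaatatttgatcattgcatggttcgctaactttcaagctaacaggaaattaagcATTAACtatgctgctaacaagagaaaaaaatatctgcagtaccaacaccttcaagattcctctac
Slco1b2: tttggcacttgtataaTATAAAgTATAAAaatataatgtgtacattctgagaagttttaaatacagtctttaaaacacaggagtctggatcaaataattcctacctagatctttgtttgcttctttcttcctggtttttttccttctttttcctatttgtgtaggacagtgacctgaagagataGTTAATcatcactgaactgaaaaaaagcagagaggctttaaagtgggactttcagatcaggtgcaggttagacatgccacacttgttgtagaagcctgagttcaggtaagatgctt

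On either strand, GTTAAT was present in 13 of 97 promoters of genes at least 4 log2 higher in liver (13.4%) and 13 of 83 of those at least 4 log2 higher in kidney (15.7%). It was present in 4.62% of the 4870 tested genes with a promoter in the RefSeq table and in 7.20% of all 27025 promoters there. Among genes at least 1 log2 higher, it was present in 7.5% of promoters for liver and 5.9% for kidney. TATAAA was present in 17.5% and 12% of the liver and kidney genes of at least 4 log2, in 8.15% of tested genes and in 14.2% of all promoters. The HNF4 site CAAAGTCCA was present in 1 of the 97 liver promoters, in 0 of the 83 kidney promoters and in 0.477% of all. The median number of CG pairs was 4 in the liver promoters and 6 in the kidney promoters of at least 4 log2, 20 among tested genes and 7 among all. These shares are descriptions of letters in a window, and binding was not measured.

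The counts of gene lists below cover the members bright enough to be tested, and each stands against the 33.7% of all probes tested that were higher in liver and the 36.2% higher in kidney. A member that is bright in 1 organ alone passes the filter through that organ and had to differ. For many lists where it is lower or the median moves, the count over all members on the rows used, with no filter, is given beside it.

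All 28 tested plasma proteins were higher in liver (31 of 32 with no filter), with a median difference of 5.56 log2 (6.14 log2 without mouse 78), where the median over all probes tested was -0.01 log2. Hpx encodes hemopexin, which binds heme in plasma. It stood at 15.97, 16.00, 16.03, 16.01 and 16.03 log2 in the livers, the top of the scale in this table. The kidneys held 9.86, 8.76, 5.85, 6.28 and 14.42 log2, so they spread over more than 8 log2 and mice 21 and 22 also lay above mice 76 and 77. Because the livers lie at the top of the scale, the fold is a lower bound: Hpx was at least 126-fold higher in liver (adjusted p 0.000581), and at least 318-fold without mouse 78. Itih4, a plasma protease inhibitor relative, was 7.15 log2 higher in liver (8.15 log2 without mouse 78) and stood at 10.96 log2 in sham lungs. All 14 tested coagulation genes were higher in liver too, 6 of which are also counted with the plasma proteins. F9, clotting factor IX, was 7.0 log2 higher (SE 0.67, adjusted p 2.98e-05; at least 159-fold without mouse 78), with 12.98 to 13.64 log2 in the livers and 5.98, 5.55, 4.61, 5.58 and 9.76 log2 in the kidneys. F12, the factor that starts the contact pathway, was at least 85.5-fold higher in liver, and at least 111-fold without mouse 78. All 12 tested complement genes were higher in liver, by a median of 2.78 log2 (2.89 without mouse 78). With all rows of the table, described further on, all 17 were higher in liver and the median was 5.39 log2. C9, a pore-forming component, was 119-fold higher (at least 137-fold without mouse 78). C4b, which acts in the early steps of the cascade, was 46.3-fold higher in liver (60.5-fold without mouse 78) and stood at 7.04 to 9.50 log2 in the kidneys, above the floor in all of them.

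Among 17 tested genes of the urea cycle and amino acid breakdown, 11 were higher in liver and 1 in kidney (11 and 0 of 18 with no filter). With all rows, 24 of 32 were higher in liver and 3 in kidney. The differences then ran from -4.34 to 7.73 log2 (liver minus kidney), with a median of 1.29 in place of 2.15 log2. Beside Cps1 and Mat1a, Agxt, which turns glyoxylate into glycine, was at least 43.8-fold higher in liver (at least 56.6-fold without mouse 78). Gnmt, which uses the methyl donor made by Mat1a, was 19.6-fold higher (25.3-fold without mouse 78), although the kidneys also held it at 10.22, 10.46, 10.33, 10.24 and 12.37 log2. Gldc, a part of the glycine cleavage system, was the exception among the 17, 0.73 log2 higher in kidney (SE 0.27, adjusted p 0.0388) with overlapping organs. It did not pass without mouse 76, 77 or 78 (adjusted p 0.106, 0.121 and 0.101) or with no filter (adjusted p 0.0732). Of 8 tested genes of bile acid synthesis and transport, 7 were higher in liver, with a median of 4.19 log2 (8 of 12 with no filter, median 1.94 log2). Cyp7a1, the rate-limiting enzyme of bile acid synthesis, stood at 12.65, 11.39, 12.31, 12.69 and 12.40 log2 in the livers and at 5.59, 4.57, 4.38, 5.08 and 9.84 log2 in the kidneys. It was at least 45.9-fold higher in liver (adjusted p 6.74e-05), and at least 76.7-fold without mouse 78. Slc27a5, which joins bile acids to coenzyme A, was 155-fold higher in liver (at least 224-fold without mouse 78). Slco1b2, which takes up bile acids and drugs from blood, was at least 34.6-fold higher (at least 45.3-fold without mouse 78). Slc51a is a subunit of the transporter by which bile acids leave cells on the blood side. It went the other way, with 10.63, 10.99, 11.06, 10.93 and 10.75 log2 in the kidneys and 4.29 to 5.61 log2 in the livers, at least 29.2-fold higher in kidney (adjusted p 6.00e-08).

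Of 24 tested cytochromes P450 of families 1 to 4, 17 were higher in liver and 4 in kidney, as they were without mouse 78. The median was 2.75 log2. With no filter, which adds 12 dim members, 18 of 36 were higher in liver and 4 in kidney, and the median was 0.45 log2. Cyp2b9 was at least 81.5-fold and Cyp3a25 at least 58.2-fold higher in liver (at least 136-fold and 88.2-fold without mouse 78). On the kidney side stood Cyp2j11, described above, and Cyp2d12, at least 16.8-fold higher in kidney (9.67 to 10.46 log2 against 5.21 to 6.48 log2). Of 28 conjugating and other detoxifying enzymes, 18 were higher in liver and 8 in kidney. Fmo5, a flavin monooxygenase, was 23.9-fold higher in liver (26.7-fold without mouse 78). Adh1, which oxidises ethanol, was abundant in both organs, at 15.20 to 15.64 log2 in liver and 12.09 to 13.36 log2 in kidney (7.65-fold). The glutathione transferases split, with Gsta3 8.14-fold higher in liver and Gsta1 18.7-fold higher in kidney. Nat8, which acetylates cysteine conjugates on the way to urine, was 47.6-fold higher in kidney, at 11.39, 11.95, 11.61, 11.70 and 11.74 log2 against 6.25, 5.31, 6.92, 6.24 and 5.81 log2.

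Liver and kidney both make glucose. Of 8 tested genes of gluconeogenesis and fructose use, 5 were higher in liver and 3 in kidney, which is all of them, and with all rows 8 and 7 of 17. With the median over a gene's probes the counts were 4 and 2 of 8. Gpt and Gpt2, which turn alanine into pyruvate, were 11.0-fold and 6.51-fold higher in liver. Pck1, which controls entry into gluconeogenesis, was 1.54-fold higher in liver, at 6.62, 7.59, 7.92, 8.04 and 8.01 log2 against 6.25, 6.98, 7.62, 7.16 and 7.05 log2. Its groups overlapped, and the liver exceeded the kidney in each of the 5 mice (adjusted p 0.00206, and 0.0738 with no replicate block, that is without pairing by mouse). Slc2a2, the glucose transporter of both organs, was 1.90-fold higher in liver (adjusted p 0.00263). The lactate dehydrogenase subunits went opposite ways, Ldha 0.69 log2 higher in liver and Ldhb 0.78 log2 higher in kidney. Of the remaining members, Mdh1 was 1.02 log2 and Slc25a10 0.42 log2 higher in kidney. In glucose phosphorylation, glycogen and lipid synthesis, 6 of 14 were higher in liver and 3 in kidney (7 and 2 without mouse 78), with a median of 0.51 log2. With all rows, 19 of 30 were higher in liver and 5 in kidney, with a median of 1.28 log2. Abcg5, which moves sterols into bile, was 53.1-fold higher in liver, and at least 77.6-fold without mouse 78. Pygl, the liver form of glycogen phosphorylase, was 4.63-fold higher in liver. Hk1, a hexokinase, was higher in kidney by at least 1.51-fold, and Scd2, a desaturase, was 0.81 log2 higher there (adjusted p 0.0235) but did not pass without mouse 22, 77 or 78 (adjusted p 0.0723, 0.0763 and 0.0633).

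Of 24 tested genes of fatty acid oxidation and ketone bodies, 10 were higher in liver and 8 in kidney, shares near those of all probes tested (33.7% and 36.2%), with a median of 0.13 log2. Without mouse 78 they were 8 and 7. The largest difference was that of Oxct1, the enzyme that lets tissues burn ketone bodies. It stood at 13.96, 13.98, 14.05, 14.53 and 14.29 log2 in the kidneys and at 7.58, 8.31, 8.21, 8.17 and 8.27 log2 in the livers, 66.3-fold higher in kidney (adjusted p 1.26e-08), and it was 13.74 log2 in sham hearts. Cpt1b, the muscle form of the enzyme that admits fatty acids to mitochondria, was 4.17-fold higher in kidney. Acads and Acaa1a, enzymes of mitochondrial and peroxisomal oxidation, were 2.37-fold and 2.14-fold higher in liver. Of 41 tested subunits of the respiratory chain and ATP synthase, 35 were higher in kidney and 1 in liver, with a median of -0.93 log2 (liver minus kidney). The differences were small and even. Ndufa5 of complex I was 2.93-fold higher in kidney, with 13.63 to 13.78 log2 against 12.08 to 12.29 log2. Sdhb of complex II was 2.65-fold and Atp5pb of ATP synthase 2.51-fold higher in kidney. The 1 subunit higher in liver was Atp5e, by 0.29 log2 with overlapping organs (adjusted p 0.0242, and 0.0634 with no replicate block), and it did not pass without mouse 21, 22, 76 or 77 (adjusted p 0.0514 to 0.0722) or with no filter (adjusted p 0.111). Of 6 tested core subunits of the proteasome, 1 was higher in kidney and 0 in liver.

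**Figure D4:**
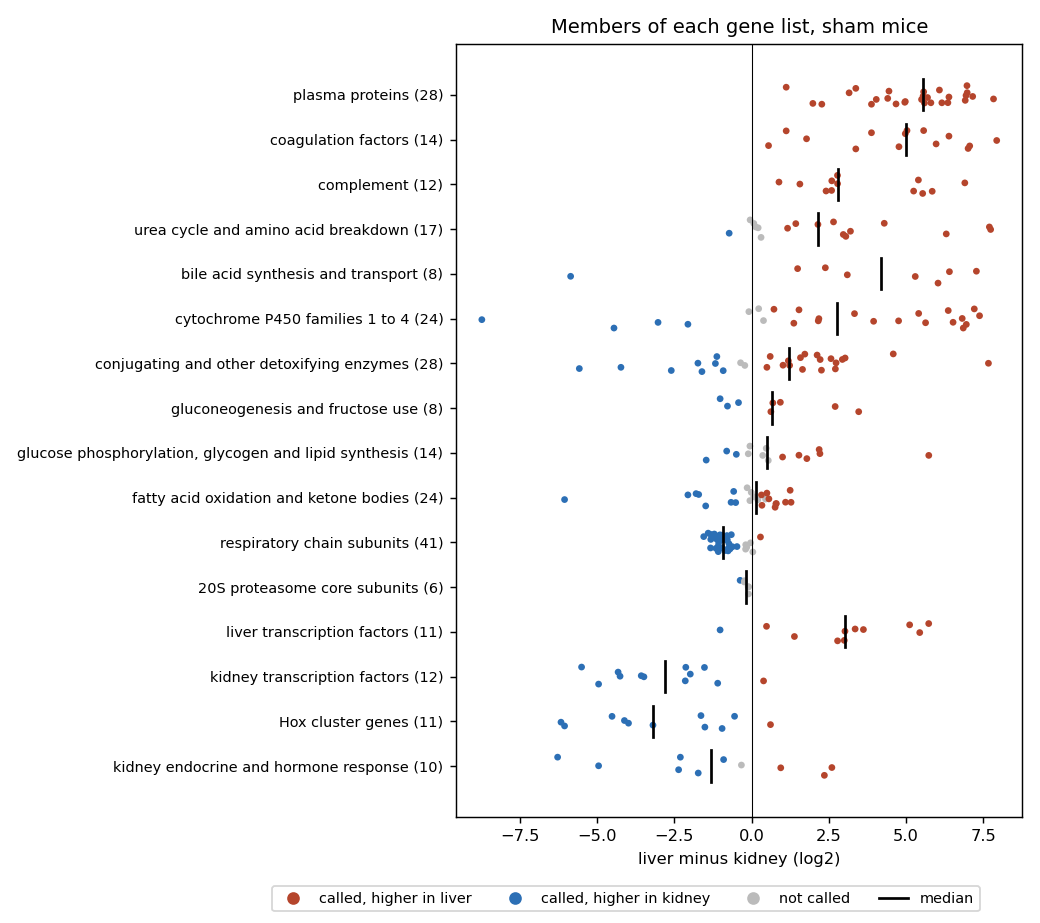
Liver minus kidney difference (log2) of the tested members of each gene list in sham mice; each point is 1 gene, coloured by its call, and the black bar is the list's median. Plasma protein and coagulation genes all lie to the right, respiratory chain subunits cluster just left of 0 with a median of -0.93, and fatty acid oxidation genes lie on both sides.

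Among transcription factors known for liver, 10 of 11 tested were higher in liver and 1 in kidney, as they were without mouse 78 (10 and 1 of 14 with no filter). Foxa3 was 53.0-fold higher in liver, at 11.77 to 12.31 log2 against 5.70, 6.23, 5.92, 5.72 and 8.04 log2 (at least 63.1-fold without mouse 78). Nr1i3, the drug-sensing receptor CAR, was at least 31.5-fold higher (at least 39.4-fold without mouse 78), and Creb3l3, a membrane-bound factor of hepatocytes, at least 25.1-fold. Prox1, Cebpa and Nr1h3 were 10.2-fold, 6.87-fold and 2.61-fold higher in liver, and Foxa2 at least 4.52-fold. Hnf4a, a nuclear receptor that hepatocytes and proximal tubule share, was nearly level. It stood at 11.32, 11.58, 11.57, 11.58 and 11.57 log2 in the livers and at 11.20, 11.09, 11.05, 11.02 and 10.85 log2 in the kidneys, 1.40-fold higher in liver (SE 0.10 log2, adjusted p 0.00358). Esrra, a receptor that drives mitochondrial genes, was the member higher in kidney, 2.03-fold.

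Of 19 transcription factors known for kidney on the rows used, 12 were tested and 11 of these were higher in kidney. Osr2, Vdr, Tfap2b and Lhx1 were under 6 log2 on average in liver and passed the filter through the kidneys. With no filter 11 of 19 were higher in kidney, and the median was -1.53 in place of -2.82 log2 (liver minus kidney). Osr2 was at least 14.7-fold, the vitamin D receptor Vdr at least 18.3-fold and Tfap2b at least 16.5-fold higher. Tfcp2l1, a factor of the distal tubule and collecting duct, was 19.1-fold higher in kidney, and Lhx1 at least 3.98-fold. Sall1, a factor of the developing kidney, was the exception at 0.39 log2 higher in liver (adjusted p 0.0141, and 0.0572 with no filter), with 8.73 log2 in the liver of mouse 78 and 8.01 to 8.19 log2 in the others. Of 24 genes of the Hox clusters, which record position along the body axis, 11 were tested and 10 of these were higher in kidney. Most of them were under 6 log2 in liver and passed the filter through the kidneys. With no filter 12 of 24 were higher in kidney and 1 in liver, and the median was -0.35 in place of -3.19 log2. Hoxb7 stood at 10.37, 10.55, 10.69, 10.44 and 10.52 log2 in the kidneys and at 2.46, 5.09, 4.53, 4.49 and 5.18 log2 in the livers, at least 22.9-fold higher in kidney (adjusted p 1.21e-06). Hoxd8 was at least 29.6-fold, Hoxd9 at least 10.8-fold, Hoxa9 at least 7.50-fold and Hoxc9 at least 7.30-fold higher. The SD between the 5 kidneys was 0.08 to 0.16 log2 in these 5 genes. Hoxb6 was at least 6.58-fold and Hoxa4, close to the floor, at least 1.26-fold higher in kidney. Hoxa13, the last gene of its cluster, was 0.61 log2 higher in liver, at 6.86 to 7.28 log2 against 6.37 to 6.56 log2, so both organs were close to the floor of 6 log2.

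In the proximal tubule list, 26 of 28 tested genes were higher in kidney (27 of 32 with no filter), with a median of -4.22 log2 (liver minus kidney). Kap, an androgen-regulated kidney protein, was at least 160-fold higher in kidney, at 13.17, 13.52, 13.41, 13.30 and 13.22 log2 against 4.30 to 5.30 log2. Slc5a12, a lactate transporter, and Slc7a9, a subunit of the cystine transporter, were at least 81.8-fold and 76.9-fold higher. The 2 members higher in liver were the fatty acid activating enzyme Acsm3 (7.24-fold) and the mitochondrial aminotransferase Agxt2 (1.49-fold, overlapping), which did not pass without mouse 21 or 22 (adjusted p 0.0523 and 0.0662). All 6 tested loop of Henle markers were higher in kidney, with a median of -7.48 log2. The median was -6.03 log2 with no filter (7 of 8 higher in kidney) and with the median over a gene's probes, and -6.11 log2 with all rows (13 of 14 higher in kidney and 1 in liver). Wfdc15b was at least 45.5-fold and Cldn16, which serves magnesium and calcium uptake, at least 18.6-fold higher. In the distal tubule and collecting duct, 16 of 17 were higher in kidney (16 of 23 with no filter). Fxyd2, a subunit of the sodium pump, was at least 149-fold higher, Kl, the co-receptor for the phosphate hormone FGF23, at least 42.1-fold, and Fxyd4 at least 18.8-fold. Slc4a1, the anion exchanger of red cells and of acid-secreting duct cells, was 21.7-fold higher in kidney. Of 6 tested podocyte genes, 3 were higher in kidney and 1 in liver (5 and 1 of 10 with no filter, 8 and 1 of 12 with all rows). Col4a3, a collagen of the glomerular basement membrane, was at least 16.4-fold and Ptpro at least 3.37-fold higher in kidney, while Plce1 was higher in liver by at least 1.42-fold. Among 10 tested genes of kidney hormones and their receptors, 6 were higher in kidney, among them the peptidase Mme (5.14-fold). In liver 3 were higher, among them the vasopressin receptor Avpr1a (6.05-fold) and the growth factor receptor Egfr (5.11-fold). With no filter the counts were 6 and 3 of 15, and the median was -0.26 in place of -1.32 log2.

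Markers of other cell types were read too. All 7 tested macrophage genes were higher in liver, by a median of 2.05 log2 (7 of 8 with no filter, median 1.97 log2). Cd163, a scavenger receptor for hemoglobin, was at least 6.35-fold higher, Clec4f, a lectin of the liver's own macrophages, at least 1.87-fold, and Mpeg1 4.29-fold. The kidney of mouse 78 stood at 6.23, 5.04 and 6.50 log2 in these genes, against at most 6.29, 5.16 and 6.30 log2 in the other kidneys. In sinusoid endothelium, 5 of 6 genes were higher in liver, with Gpr182 6.62-fold and Stab2 5.25-fold. Stab1 was 0.33 log2 higher in kidney (adjusted p 0.0381, and 0.0942 with no replicate block), and it did not pass without mouse 21, 22, 77 or 78 (adjusted p 0.0649 to 0.118) or with no filter (adjusted p 0.116). With the median over a gene's probes, Stab1 turned to liver and all 6 genes were higher there. General endothelial genes split 2 to 2 of 6, and the largest difference among these 6, 1.44 log2, was in favour of liver. With all rows, 5 of 14 were higher in liver and 8 in kidney. The differences then ran from -5.03 to 1.44 log2 (liver minus kidney), so the largest was in favour of kidney. Tek and Esam were 2.10-fold and 2.03-fold higher in kidney. Of 6 stromal genes, Lrat, which stores vitamin A in stellate cells, was 4.34-fold higher in liver, while Pdgfra and Acta2 were 3.14-fold and 3.43-fold higher in kidney. Krt7, a keratin of bile ducts and of collecting ducts, was 11.8-fold higher in kidney. The markers of neutrophils, lymphocytes, red cells, adrenal cortex and pancreas had 1 to 3 tested genes each. Amy2a5, annotated as pancreatic amylase and near-identical to the salivary form, was 10.6-fold higher in liver, at 12.99 to 13.69 log2, and its probe may bind both.

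Fat transcripts were present in the kidney samples. Of the 4 tested fat genes, 3 were higher in kidney. Adipoq, the adipocyte hormone adiponectin, stood at 10.99, 10.30, 12.16, 10.79 and 11.91 log2 in the kidneys and at 5.69, 6.93, 6.01, 5.81 and 7.31 log2 in the livers (29.5-fold, adjusted p 4.03e-06). All kidneys lay above all livers, and mice 76 and 78 were the highest. Ucp1, the marker of brown fat, lies on a row outside the rule, was too dim to be tested and was chosen after its values were seen. It stood at 5.88, 5.57, 10.95, 8.46 and 10.83 log2 in the kidneys of mice 21, 22, 76, 77 and 78, and at 4.13 to 5.07 log2 in the livers. The part of fat in the other differences was not tested.

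The rows that do not follow the header were read with their columns set back by the series matrix value table, whose liver and kidney differences coincide with those of the deposited table. With all rows, 12107 of 17411 probes tested passed (69.5%), 33.9% of probes higher in liver and 35.6% higher in kidney, and 56 of 56 plasma proteins and 17 of 17 hepatocyte markers were higher in liver, and 39 of 44 proximal tubule markers and 55 of 67 respiratory chain subunits higher in kidney. Some well-known genes stand only there, named after their values were seen. Slc34a1, the phosphate transporter of the proximal tubule, was at least 575-fold and Lrp2, the endocytic receptor megalin, at least 269-fold higher in kidney. Arg1, the last enzyme of the urea cycle, stood at 14.31 to 14.61 log2 in liver and at 6.75, 6.55, 5.54, 4.69 and 11.48 log2 in the kidneys. Clec4g, a lectin of liver sinusoid endothelium, stood at 12.62 to 13.10 log2 in the livers and at 5.66, 5.62, 5.34, 5.34 and 9.40 log2 in the kidneys. Vsig4, a receptor of liver macrophages, stood at 5.56, 4.99, 5.19, 5.20 and 7.75 log2 in the kidneys and at 11.21 to 11.66 log2 in the livers. In these 3 genes the kidney of mouse 78 was the highest of the 5 kidneys. Over the whole lists it was the highest for 16 of 19 hepatocyte members, 5 of 9 of sinusoid endothelium and 7 of 15 of macrophages, and it lay at least 2 log2 above the other kidneys for 10, 1 and 1 of them.

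The same comparison in septic mice asked how far the difference between the organs held. On the probes tested in sham mice, 4549 differed in CLP mice (52.4%) and 5434 in MSC mice (62.6%). Of the 2412 sham calls of at least 1 log2, 81.7% were called in the same direction in CLP mice and 92.6% in MSC mice, and 16 and 18 were called in the opposite direction. The liver minus kidney difference itself changed between sham and CLP mice at 2369 probes (27.3%), toward liver at 1248 and toward kidney at 1121. Between sham and MSC mice it changed at 1420 (16.4%). Among the 111 genes named in the text, the change with CLP was called for 39, and the 6 with the largest change in each direction follow. These genes were named for large sham differences, which favours a narrower difference elsewhere, and the changes with CLP and MSC share the sham mice.

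Cyp7a1 changed most. Its liver level was 12.29 ± 0.53 log2 in sham, 5.40 ± 1.30 in CLP and 5.44 ± 0.77 in MSC mice (SD, n = 5), while the kidneys stayed under 6 log2 on average in all arms. The difference fell by 5.61 log2 with CLP (SE 0.86, adjusted p 0.000582), and by 6.57 log2 without mouse 78. In CLP and MSC mice both organs lay under 6 log2 on average. The difference left there and the size of the fall are therefore limited by the floor. Slco1b2 fell by 3.76 log2 in its difference (adjusted p 0.0125), and by 4.38 log2 without mouse 78, with 6.99 ± 2.40 log2 in CLP livers and 10.22 ± 1.58 in MSC livers. Gsta3 fell by 3.20 log2 (adjusted p 6.69e-06; by 3.35 log2 without mouse 78), so that the liver's excess of 3.02 log2 became -0.18 log2. Slc2a2 fell by 2.55 log2, and without mouse 78 it fell by 2.43 log2, and stood 1.62 log2 higher in kidney than in liver in CLP mice. Cyp2b9 fell by 2.87 log2, and without mouse 78 it fell by 3.82 log2. It still had a fitted difference of 4.33 log2 in CLP mice, whose kidneys (5.06 log2) were under the floor. Gpt fell by 2.31 log2, and without mouse 78 it fell by 2.37 log2. The change of Cyp2b9 did not pass without sham mouse 22, 76 or 77 or CLP mouse 24 or 34 (adjusted p 0.0544 to 0.0594). In the other direction the kidney's excess narrowed. The kidney level of Slc5a12 was 12.35 ± 0.22 log2 in sham and 9.44 ± 1.90 in CLP mice, and its difference changed by 3.10 log2 toward liver (SE 0.69, adjusted p 0.00445). Nat8, Miox, Slc4a1, Slc51a and Slc12a1 changed by 2.52, 2.42, 2.38, 2.13 and 1.63 log2 toward liver (adjusted p 0.002 to 0.0129). Each of these 6 remained higher in kidney in CLP mice, Miox by 6.75 log2 and Slc12a1 by 7.39 log2. Slc12a1 stood at 4.65 log2 in CLP livers, under the floor, so its value is a fitted difference.

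**Figure D5:**
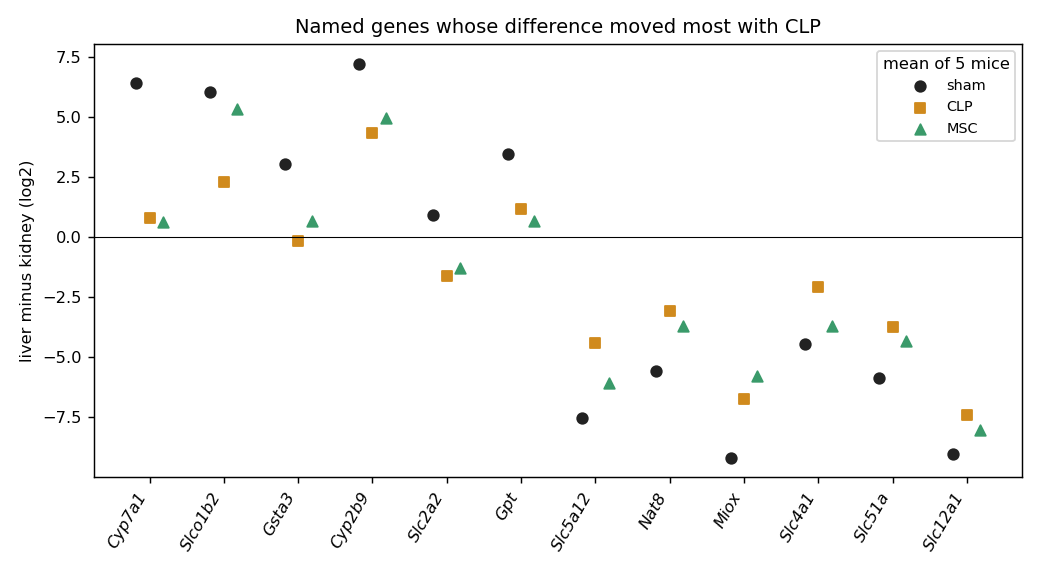
Liver minus kidney difference (log2, mean of 5 mice per arm) of the 12 named genes that changed most with CLP, in sham (circles), CLP (squares) and MSC (triangles) mice. For Cyp7a1 the difference of 6.40 in sham mice is 0.79 in CLP and 0.64 in MSC mice, where both organs lie under 6 log2 on average. For Miox, -9.17 becomes -6.75 and -5.79.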

How the data were processed

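Total RNA of whole organs was labelled with biotin and hybridised to Illumina bead arrays, per the labels' protocols. The deposited values were taken as log2 intensities from their range (0.01 to 16.03). Sorted values coincide within 0.00352 log2 over the 60 liver, lung, kidney and heart arrays, so they had already been brought to a common distribution. The software, background correction and scan batches are not stated in the sources used here. Precision is limited by the count of arrays.

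Of 45255 complete rows, the 22504 that follow the header were used. Symbols came from the array's annotation, which can be old: of the probes tested, 7491 have 1 symbol, 3 several and 1182 are not listed. A gene is represented by its probe with the highest mean over the 10 arrays. For the promoter shares it is instead the tested probe with the largest difference between the organs, which favours large differences. Where 749 genes had over 1 called probe, the probes of 52 went in both directions. limma 3.58.1 (R 4.3.3, lmFit and eBayes) fitted the mouse as a block, because the labels give liver and kidney of an animal the same number. Deviations from the organ means correlated at 0.09 to 0.30 between organs of the same mouse, and at -0.22 to 0.11 between organs of different mice. Probes were tested where they exceeded 6 log2 in at least 5 of 10 arrays. On data simulated for this comparison, 50 of 8676 probes were changed at each of 4 sizes. Differences of 1, 2 and 4 log2 were recovered in 100% and those of 0.5 log2 in 54% of cases, and 11 of 188 calls were false. The share of changed probes was far smaller than in the data and no array was set apart, so these rates need not hold for the data.

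The change with CLP was tested on the liver minus kidney differences of each mouse. Genes were named by rule: the 8 largest differences in each direction among called genes whose organs did not overlap, up to 3 further genes per list and up to 2 that went against it, with some lists named whole. Of these, 111 are given here. The groups, lists and rules were chosen with earlier results of these data known, and the 32 lists hold 824 genes, of which 355 were tested. Alternatives covered the block, the filter, scaling, other arrays in the fit, the spread, each mouse left out, and the source table. After the values were seen, all rows set back by the series matrix and the named genes, lists and changes without mouse 78 were added. Promoters are from RefSeq (GRCm38.p6), 1 per gene. The lung and heart arrays were used for levels and for the sorted values, and those of sham mice also in the alternative fit of all 20 sham arrays.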

Additional observations from a re-analysis of the deposited data

Results flagged for a closer look

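Among the 222 groups of 5 sham values behind the named genes, 33 held a sample far from the other 4 (gap over range above 0.71, Dixon's limit for 5 samples), where chance flags about 1 group in 20. Of these, 22 were the kidney of mouse 78. In 21 of them it was the highest kidney and the gene was one that was higher in liver. Its levels in log2 were Plg 10.99, Cps1 11.27, Mat1a 12.52, Ugt2b36 11.56, Hamp 11.38, Cyp2c37 11.33 and F9 9.76. Further levels were F12 7.92, C9 10.08, Agxt 7.52, Gnmt 12.37, Slc27a5 10.91, Cyp7a1 9.84 and Slco1b2 8.28. The last were Cyp2b9 9.71, Cyp3a25 9.51, Fmo5 8.35, Abcg5 9.49, Foxa3 8.04, Nr1i3 7.69 and Creb3l3 6.32. The other 4 kidneys lay between 4.34 and 10.46 log2 in these genes. For Umod the same kidney was the lowest, at 14.83 log2 against 15.17 to 15.30 log2. The kidneys of CLP and MSC mice carried no such level of the liver-high probes, and the origin of these transcripts was not tested.

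The remaining 11 samples far from the others were spread over mice and organs. In the kidney of mouse 22 this was Dnase1 at 14.57 log2 (others 13.48 to 13.60). In the kidney of mouse 77 this was Plce1 at 5.58 log2 (others 5.85 to 5.95). In the liver of mouse 21 these were Oxct1 at 7.58 log2 (others 8.17 to 8.31), Nr1h3 at 11.89 log2 (others 11.68 to 11.73), Hnf4a at 11.32 log2 (others 11.57 to 11.58) and Hoxb7 at 2.46 log2 (others 4.49 to 5.18). In the liver of mouse 22 these were Ptpro at 4.47 log2 (others 5.04 to 5.21) and Wfdc15b at 5.62 log2 (others 4.98 to 5.14). In the liver of mouse 76 this was Egfr at 12.33 log2 (others 11.51 to 11.74). In the liver of mouse 78 these were Ldhb at 5.51 log2 (others 6.10 to 6.25) and Sall1 at 8.73 log2 (others 8.01 to 8.19).

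The liver minus kidney difference changed between sham and CLP mice for 12 genes named above (limma, adjusted p below 0.05). The change was -5.61 log2 for Cyp7a1, -3.76 log2 for Slco1b2, -3.20 log2 for Gsta3, -2.87 log2 for Cyp2b9, -2.55 log2 for Slc2a2 and -2.31 log2 for Gpt. It was 3.10 log2 for Slc5a12, 2.52 log2 for Nat8, 2.42 log2 for Miox, 2.38 log2 for Slc4a1, 2.13 log2 for Slc51a and 1.63 log2 for Slc12a1. Slc2a2 went from 0.93 log2 higher in the liver of sham mice to -1.62 log2 in CLP mice and Gsta3 from 3.02 to -0.18 log2. The others named here kept their direction with a smaller difference in CLP mice, where Cyp7a1 was under 6 log2 on average in both organs.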

How the results depend on the processing

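With no replicate block, 5770 probes passed in sham mice in place of 6063, 108 of the 111 named genes stayed called, and Pck1, Atp5e and Stab1 lost the call. In CLP and MSC mice 3736 and 5231 passed without the block. Under the other filters, scalings, array sets and spread settings the sham count was 4560 to 6484. Leaving out each mouse gave 5566 to 5724 probes in sham mice, and 2392 to 2456 at 1 log2 or more. It gave 3709 to 4485 in CLP and 4846 to 5151 in MSC mice. For the change with CLP it gave 1681 to 3171 (the highest without CLP mouse 107), for the change with MSC 980 to 1363, for list members 303 to 310 and for named genes 107 to 109. The counts grew where more rows entered. In sham mice the series matrix table gave 12574 and all rows set back 12107, and 4913 and 4900 at 1 log2 or more. In CLP and MSC mice the series matrix gave 9411 and 11211, and for the changes with CLP and MSC 4648 and 2666. List members called were 561 with all rows in place of 311. A test against a difference of 1 log2 left 1692 probes (735 higher in liver). With no filter the change with CLP passed at 1557 probes and that with MSC at 901, and the cause was not tested. The median of stromal genes turned from -0.35 to 0.0603 log2 with no filter, and that of neutrophil markers, which rests on 1 tested gene, from 0.43 to -0.0088 log2 without mouse 22 and spanned -0.0088 to 0.78 log2 over the mice left out. No named gene turned its direction in any alternative fit in which its probe was tested. With the median over a gene's probes, 6 of 6 genes of sinusoid endothelium were higher in liver, so Stab1 turned to liver. Genes dim in 1 organ are limited by the floor of 6 log2, so their folds are lower bounds.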

Other observations

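The 70 liver-high probes were also read in the lungs and hearts, which were not compared with liver or kidney here. Their mean was 6.11 to 6.35 log2 in sham lungs and 5.54 to 6.05 log2 in sham hearts, and the highest array of the MSC arm reached 7.38 log2 among lungs and 7.65 log2 among hearts, all under the 10.13 log2 in the kidney of sham mouse 78. Lcn2, an iron-binding protein of the acute phase response, lies among the rows that do not follow the header and was named after its values were seen. It stood at 15.44, 15.17, 14.61, 14.08 and 13.61 log2 in the livers of sham mice 21, 22, 76, 77 and 78, and at 8.99, 8.56, 8.88, 7.81 and 10.40 log2 in their kidneys.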
